A study of Mus musculus with 18 samples.

Results

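Gene expression was compared in the quadriceps muscle of Pip6a-PMO-treated and untreated HSA-LR mice, by polyA-selected RNA-seq with a stranded kit. The members are the 6 libraries whose titles name the HSA-LR quadriceps, 3 from treated and 3 from untreated mice, out of 18 libraries in the series. The other 12 are 3 quadriceps libraries from WT mice and 9 gastrocnemius libraries with the same groups and mouse numbers. All mice were of the FVB strain and 20 weeks old, and the 6 HSA-LR mice were labelled male. HSA-LR mice carry a human skeletal actin transgene with a long CTG repeat in its 3′ UTR, driven by the skeletal actin promoter, so the repeat RNA is made in muscle fibers and not in the other cells of a muscle. Treated mice had received Pip6a-PMO by intravenous injection. The labels mention saline injections without saying which mice had them, and the dose given to the sequenced mice was not stated. No mouse sequenced here had received the peptide with another oligonucleotide, and no treated WT mouse was sequenced. Effects of the peptide, of the injection and of the repeat-directed sequence therefore cannot be told apart in these libraries. In other mice, the study reports no change of splicing defects or myotonia with a Pip6a conjugate of reversed sequence.

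In myotonic dystrophy type 1 (DM1), transcripts with expanded CUG repeats gather in nuclear foci and hold muscleblind-like (MBNL) splicing factors. The loss of free MBNL returns many muscle transcripts to fetal splice forms, among them the chloride channel Clcn1, whose loss gives myotonia, the delayed relaxation of muscle. A PMO is an uncharged, nuclease-resistant antisense oligonucleotide, here with a CAG repeat sequence that pairs with CUG repeats. Pip6a is a cell-penetrating peptide that carries it into muscle.

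Splicing of MBNL targets separated the 2 groups. Clcn1 exon 7a (GRCm38, chromosome 6, 42293444 to 42293522, plus strand, 79 bp) took 1.14% ± 0.0563 of its gene's counts in untreated mice and 0.165% ± 0.0475 in treated mice (SD, n = 3), against 0.0898% ± 0.00447 in WT mice. Mbnl1 exon 5 (chromosome 3, 60614683 to 60614736, plus strand, 54 bp) took 0.728% ± 0.155 and 0.158% ± 0.0197, and 0.125% ± 0.0291 in WT mice. Atp2a1 exon 22 (chromosome 7, 126446545 to 126446586, minus strand, 42 bp) went the other way, with 0.871% ± 0.0467 in untreated, 3.67% ± 0.144 in treated and 3.97% ± 0.0180 in WT mice. Treated and untreated mice did not overlap for any of these exons (two-sided exact permutation test, P = 0.1 for each, the smallest P that 3 mice against 3 allow).

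Libraries held 98916844 to 130717686 counts in genes, with the ranges of treated and untreated mice overlapping, and at this depth counting error is small for all but the rarest transcripts. Levels are given as CPM (counts scaled to a common library size with the TMM factor of each library), and values of a group are listed for mice 1, 2 and 3 in that order. The tissue markers fitted the label, with summed CPM of 10 skeletal muscle genes such as Ckm and Acta1 of 166840, 158680 and 182490 in untreated and 213020, 197930 and 243510 in treated mice, which did not overlap, and 4 of the 10 rose. The 4 Y-linked genes, of which 0 were called by edgeR, DESeq2 or limma voom and 0 had an unadjusted P under 0.05, fitted the labelled sex in all 6 HSA-LR libraries and in 1 of 3 WT libraries. Their summed CPM was 161, 189 and 1.45 in WT, 167, 165 and 177 in untreated and 181, 189 and 173 in treated mice. WT mouse 3 thus lacked the Y-linked expression of the other mice. WT values enter here as a reference, which is not matched in this respect, and through the estimate of spread. The median over 6554 genes of the log2 ratio of counts in the 5′ to those in the 3′ part was -1.94, -1.83 and -1.91 in untreated and -1.79, -1.80 and -1.84 in treated mice, with overlap. Adipocyte, slow fiber and immediate early genes were uneven within groups, and their values are given with their lists. In whole muscle, fewer cells of a type and less RNA per cell cannot be told apart.

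Of 15574 genes tested, 2143 (13.8%) were called at an adj. P under 0.1 in treated against untreated mice, with 1019 higher (6.54%) and 1124 lower (7.22%). The adjusted P (adj. P) is throughout that of the quasi-likelihood test in edgeR, with P-values adjusted over all genes by the Benjamini-Hochberg method. Large changes were mostly falls, since 648 genes (4.16%) changed at least 2-fold and 474 of them were lower. The median log2 fold change (FC) of all genes was -0.01. The count moved with single mice and was 691 and 873 without untreated mouse 1 or 2 and 2784 without untreated mouse 3, and 847, 1027 and 1432 without treated mouse 1, 2 or 3. In all, 544 genes stayed called in the same direction with each of the 6 HSA-LR mice left out in turn, 241 higher (1.55%) and 303 lower (1.95%), and these are named firm calls below. With the 5′ to 3′ ratio of each library as a covariate, 227 genes were called, 224 of them shared, and 187 genes were called under all 21 alternatives.

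**Figure D1:**
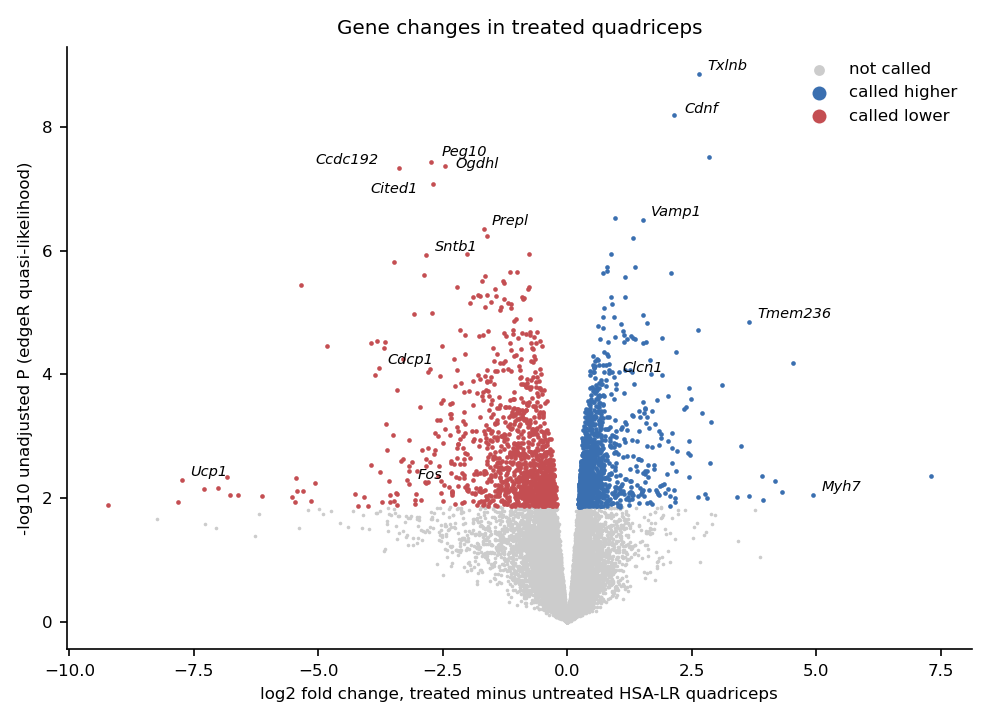
Each point is 1 of the 15574 genes, placed by its log2 fold change in treated against untreated HSA-LR quadriceps and by -log10 of its unadjusted P. Genes called at an adj. P under 0.1 are blue where higher (1019) and red where lower (1124). Txlnb has the smallest P.

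The gene with the smallest P was Txlnb, which encodes beta-taxilin, a coiled-coil protein of muscle that belongs to a family of syntaxin binders. Txlnb (ENSMUSG00000039891.6, chromosome 10, 17796226 to 17845665, plus strand) had 312, 306 and 338 CPM in untreated and 1862, 1985 and 2119 CPM in treated mice. The rise was 6.25-fold (log2 FC 2.64 ± 0.11, SE, edgeR adjusted P = 2.2e-05), and every treated mouse also lay above the WT mice, which had 412, 519.9 and 442 CPM. Against WT mice its log2 FC was 2.12 in treated (edgeR adjusted P = 0.000133) and -0.52 in untreated mice (edgeR adjusted P = 0.012). Txlnb holds a run of CTG repeats, the sequence the PMO is directed against, in the 5′ UTR of its transcript. The run is shown in capitals with the flanking bases in lower case, on the sense strand of GRCm38 (chr10:17796330-17796356 marks the 9 repeats, from GENCODE M21 transcripts).
Txlnb: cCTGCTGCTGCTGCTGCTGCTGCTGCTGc
The rise ran along the gene. Among the 11 of its 12 exon bins with at least 100 counts over the 6 libraries, all had every treated mouse above every untreated mouse. Their log2 ratio of mean CPM was 2.32 to 2.74, and the bin with the CTG run was at 2.60.

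Further rises with a small P, among genes changed at least 2-fold with no overlap between treated and untreated mice, were those of Cdnf and Vamp1. Cdnf (ENSMUSG00000039496.8, chromosome 2, 3513030 to 3526376, plus strand), a neurotrophic factor of the endoplasmic reticulum, had 8.14, 7.47 and 9.08 CPM in untreated and 34.6, 37.0 and 37.9 CPM in treated mice, and 36.7, 44.0 and 42.7 CPM in WT mice. Its log2 FC was 2.15 ± 0.11 (edgeR adjusted P = 4.97e-05). Vamp1, the vesicle SNARE synaptobrevin-1, rose from 7.53, 8.35 and 7.42 CPM to 20.7, 21.5 and 24.4 CPM (log2 FC 1.51 ± 0.12, edgeR adjusted P = 0.000546). Txlnb, Cdnf and Vamp1 were firm calls and stayed called with the 5′ to 3′ covariate.

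Of 132 genes with such a rise, 8 more are named by their P. Acot7, which splits long-chain acyl-CoA, went from 7.04 ± 0.362 to 17.5 ± 1.33 CPM (mean ± SD, n = 3, log2 FC 1.31). Igfbp5, which binds insulin-like growth factors, went from 204 ± 25.0 to 614 ± 137 CPM (log2 FC 1.59), and F2rl3, the protease-activated receptor PAR4, from 0.329 ± 0.0441 to 1.39 ± 0.137 CPM (log2 FC 2.08). The log2 FC was 1.36 for C2cd2, 1.16 for Ndrg3, 1.15 for the kelch protein gene Kbtbd12, 1.52 for the sodium pump regulator Fxyd6 and 3.64 for the membrane protein gene Tmem236. All 8 had an edgeR adj. P between 0.000801 and 0.00347 and were firm calls. Tmem236, at 0.194, 0.0652 and 0.144 CPM in untreated and 1.20, 2.05 and 1.75 CPM in treated mice, resembled Txlnb in lying above the WT range of 0.194, 0.0970 and 0.225 CPM in every treated mouse (log2 FC 3.27 against WT mice, edgeR adjusted P = 0.0142).

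Among genes with the same lack of overlap and at least 1 CPM on average, the largest rises included those of Lrrc52, BC048679, Txlnb and Lgi1. Lrrc52, an auxiliary subunit of large-conductance potassium channels, had 0.287, 0.138 and 0.0847 CPM in untreated and 2.60, 2.74 and 0.327 CPM in treated mice (log2 FC 3.48, edgeR adjusted P = 0.0335). Lgi1, a secreted leucine-rich protein best known from neurons, had 0.574, 0.362 and 0.102 and 1.95, 3.06 and 0.604 CPM (log2 FC 2.44, edgeR adjusted P = 0.0588). For both, treated mouse 3 lay far below treated mice 1 and 2, the order also seen for slow fiber genes. Neither was a firm call: Lrrc52 was not called without untreated mouse 2 (log2 FC 3.11 to 4.07 over the leave-outs), nor Lgi1 without untreated mouse 2 or treated mouse 1 or 2 (1.88 to 2.998). BC048679 had 0.324, 0.217 and 0.373 and 2.66, 3.14 and 2.09 CPM (log2 FC 3.11, edgeR adjusted P = 0.0109) and was a firm call.

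**Figure D2:**
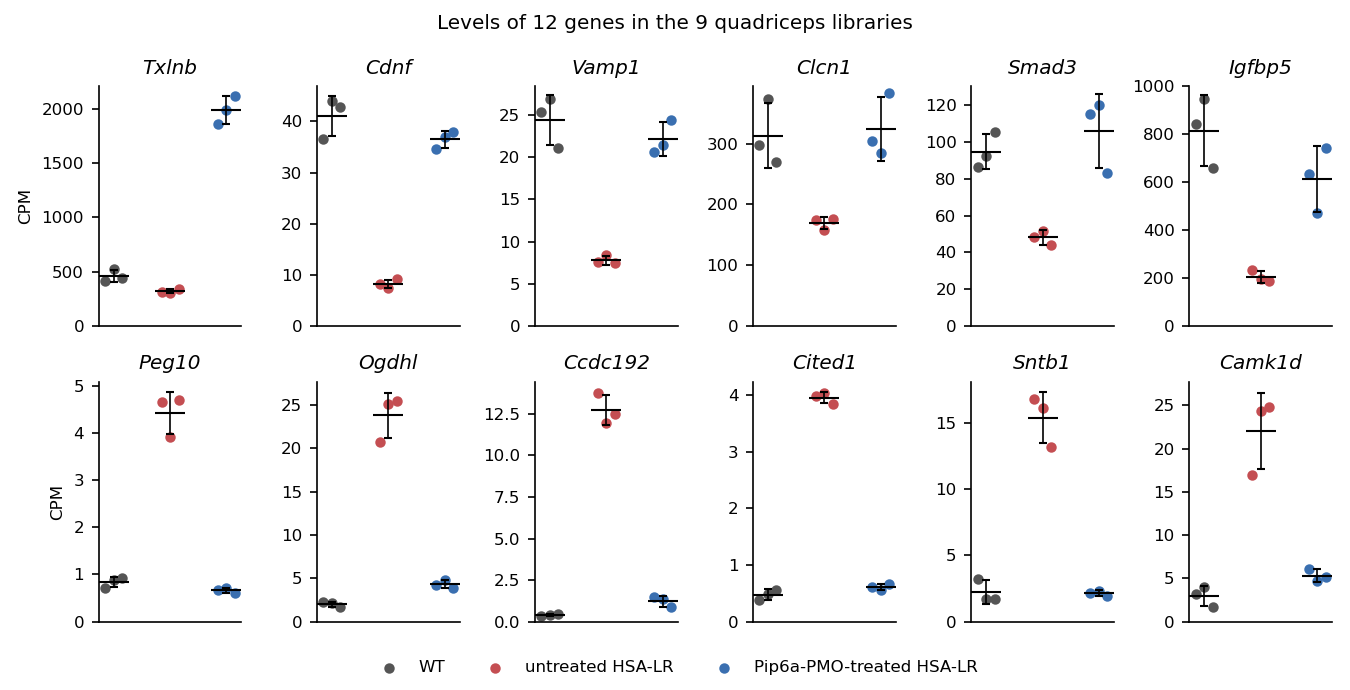
Levels in CPM on a linear axis from 0 for 12 genes, with 1 point per mouse and bars at the mean ± SD of 3 mice. Grey marks WT, red untreated HSA-LR and blue Pip6a-PMO-treated HSA-LR mice. For each gene shown the treated and untreated mice do not overlap, and for Txlnb the treated mice at 1862 to 2119 CPM also lie above all WT mice.

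In the other direction 352 genes fell at least 2-fold with no overlap. The falls with the smallest P, of Peg10, Ogdhl, Ccdc192 and Cited1, brought genes that lay higher in untreated than in WT mice near to the WT level. Peg10 (ENSMUSG00000092035.8, chromosome 6, 4747306 to 4760517, plus strand), an imprinted gene derived from a retrotransposon and best known from the placenta, had 4.65, 3.91 and 4.70 CPM in untreated and 0.670, 0.712 and 0.604 CPM in treated mice (log2 FC -2.74 ± 0.16, edgeR adjusted P = 0.000119). WT mice had 0.722, 0.873 and 0.918 CPM, slightly above each treated mouse. Ogdhl (ENSMUSG00000021913.7, chromosome 14, 32322019 to 32348151, plus strand), which encodes a relative of the oxoglutarate dehydrogenase of the TCA cycle, fell from 20.8, 25.1 and 25.5 CPM to 4.19, 4.85 and 3.89 CPM (log2 FC -2.46 ± 0.15, edgeR adjusted P = 0.000119). Ccdc192, a coiled-coil protein gene, fell from 13.8, 11.96 and 12.5 CPM to 1.47, 1.34 and 0.856 CPM (log2 FC -3.38 ± 0.21, edgeR adjusted P = 0.000119). Both stayed above the WT mice, which had 2.22, 2.14 and 1.65 CPM of Ogdhl and 0.343, 0.406 and 0.442 CPM of Ccdc192. Cited1 (ENSMUSG00000051159.16, chromosome X, 102247381 to 102252181, minus strand), a transcriptional co-regulator, fell from 3.99, 4.04 and 3.85 CPM to 0.615, 0.559 and 0.663 CPM (log2 FC -2.69 ± 0.18, edgeR adjusted P = 0.000188).

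Sntb1, named with the dystrophin complex below, and 7 others complete the falls named by P. The log2 FC was -1.61 for Fbp2, the muscle fructose-bisphosphatase of gluconeogenesis, -1.16 for Shmt1, which passes carbon units from serine to folate, and -1.68 for the prolyl endopeptidase-like gene Prepl. It was -1.01 for Strn4, a striatin scaffold of protein phosphatase 2A, -2.01 for Vwa3b, -2.87 for Tceal7 and -1.65 for the taste receptor subunit gene Tas1r1. These 7 had an edgeR adj. P between 0.000688 and 0.00155, and all were firm calls. Prepl illustrates the group, with 81.0, 80.2 and 97.5 CPM in untreated, 29.2, 25.1 and 26.4 CPM in treated and 15.9, 21.0 and 21.2 CPM in WT mice.

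The largest falls at 1 CPM or more with no overlap were those of Cdcp1, Cxadr, Aldh1a7, Rgs7 and Ccdc192. Cdcp1, a transmembrane protein of epithelial cells, had 4.47, 3.08 and 2.14 CPM in untreated and 0.0995, 0.305 and 0.294 CPM in treated mice (log2 FC -3.78 ± 0.47, edgeR adjusted P = 0.00828) and no count in any WT mouse. Cxadr, the cell adhesion receptor for coxsackieviruses and adenoviruses, had 3.53, 4.02 and 2.24 and 0.181, 0.322 and 0.260 CPM (log2 FC -3.68 ± 0.50, edgeR adjusted P = 0.00526). Both of these and Ccdc192 were firm calls. Aldh1a7, an aldehyde dehydrogenase gene, had 10.7, 15.8 and 0.965 and 0.959, 0.822 and 0.503 CPM, and the G-protein regulator gene Rgs7 had 2.62, 4.85 and 0.407 and 0.335, 0.237 and 0.168 CPM. Both followed the adipocyte genes, with a low value in untreated mouse 3 and a high one in WT mouse 1. Their log2 FC was -3.59 and -3.41 (edgeR adjusted P = 0.0631 and 0.0791). With the adipocyte level of each library as a covariate it was -1.18 and -1.23, and the call of Aldh1a7 held. Neither gene was called without untreated mouse 1 or 2 or without any of the treated mice. The part of fat in either fall was not tested otherwise.

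Genes were next grouped by function and cell type, using 49 lists that include the checks of tissue and sex. Counts of listed genes are set against the 6.54% of all tested genes that were called higher and the 7.22% called lower, and their medians against -0.01. Of the 225 called genes among those listed or named, 73 were firm calls, and every one of the 225 with an edgeR adj. P under 0.0260 was among them. The counts of many lists depended on single mice, so firm calls are given with each list. With the 5′ to 3′ covariate 37 of the 225 were called, all of them firm calls. With the slow fiber covariate 108 were called, 68 of them firm, and with the adipocyte covariate 131, among them all 73 firm calls.

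Sarcolemmal channels and pumps, which set the electrical excitability of fibers, included more rises than falls. Among 29 tested, 6 rose and 2 fell, with a median log2 FC of 0.17. Clcn1, the chloride channel that steadies the resting fiber membrane, had 174, 157 and 175 CPM in untreated and 305, 285 and 383 CPM in treated mice (log2 FC 0.94 ± 0.15, edgeR adjusted P = 0.00929), and 297, 373 and 269 CPM in WT mice. Its level and its exon 7a share both separated the groups. Scn4a, the sodium channel of the muscle action potential, went from 339.5, 353 and 385 to 523, 520.3 and 629 CPM (log2 FC 0.63 ± 0.11, edgeR adjusted P = 0.0169). Clcn1 and Scn4a were among the 3 firm calls of the list. The calcium-activated channel Kcnma1 rose (log2 FC 0.68), and the calcium channel subunit Cacng1 and the SK3 channel gene Kcnn3, which is raised in denervated muscle, fell (-0.59 and -0.92). Without untreated mouse 1 or treated mouse 1, 3 of the list rose and 0 fell.

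In the sarcoplasmic reticulum, which stores and releases the calcium of contraction, 7 of 23 genes rose and 1 fell, with a median log2 FC of 0.33. The release channel Ryr1 had 4893, 4708 and 5540 CPM in untreated and 6762, 6810 and 7979 CPM in treated mice (log2 FC 0.51 ± 0.12, edgeR adjusted P = 0.0442). Jph2, which ties the reticulum to the T-tubule, rose (log2 FC 0.61), as did Hrc, Srl and Stim1 (0.42, 0.46 and 0.33). Sln, sarcolipin, an inhibitor of the calcium pump, fell from 73.3, 42.4 and 19.6 to 13.2, 6.25 and 7.84 CPM (log2 FC -2.31 ± 0.68, edgeR adjusted P = 0.0759), against 0.625, 4.43 and 1.43 CPM in WT mice. The slow-fiber forms Atp2a2 and Pln, the cardiac and slow pump and its inhibitor, rose by 1.60 and 1.85 on the log2 scale, with treated mouse 3 at 0.738 CPM of Pln within the untreated range. Atp2a1, the fast-fiber pump, had a log2 FC of 0.44 (edgeR adjusted P = 0.105). No call of this list was firm, and 0 of its genes were called without untreated mouse 1 or 2.

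Of 13 contractile genes of fast fibers 3 rose and 0 fell, with a median log2 FC of 0.33. The fast troponin T gene Tnnt3 had 23350, 22988 and 26009 CPM in untreated and 39037, 34756 and 44823 CPM in treated mice (log2 FC 0.71 ± 0.13, edgeR adjusted P = 0.0161). Myh2, the myosin of oxidative fast fibers, had 599.9, 396 and 401 and 2755, 3579 and 976 CPM (log2 FC 2.39 ± 0.43, edgeR adjusted P = 0.0168), so each treated mouse exceeded each untreated mouse although treated mouse 3 was well below the other two. Both were firm calls, and Tnni2 also rose (log2 FC 0.45).

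Slow fiber genes gave the highest median of any list, 2.16, with 7 of 14 called higher. The slow myosin Myh7 had 13.8, 3.66 and 3.66 CPM in untreated and 163, 477 and 6.11 CPM in treated mice (log2 FC 4.94 ± 1.497, edgeR adjusted P = 0.0803), against 8.78, 14.3 and 93.4 CPM in WT mice. Tnnt1, Tnnc1 and Myh7b, the slow troponins T and C and a further slow myosin, had a log2 FC of 4.17, 4.32 and 2.16. Treated mice 1 and 2 carried these rises and treated mouse 3 resembled the untreated mice. None was a firm call: 0 genes of the list were called without untreated mouse 2 or 3 or without treated mouse 1 or 2, and 12 without treated mouse 3. Summed over the list, the level was 1807, 2217 and 4458 CPM in untreated and 4501, 5561 and 2564 CPM in treated mice, ranges that overlap. Mybpc1, at 4142 CPM in untreated mouse 3, takes most of the sum there. The mean log2 CPM over the list overlapped too, at 4.83, 4.05 and 3.99 in untreated and 6.68, 7.57 and 4.11 in treated mice. With the slow fiber level of a library as a covariate, 1078 genes were called in all and 854 were shared.

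**Figure D3:**
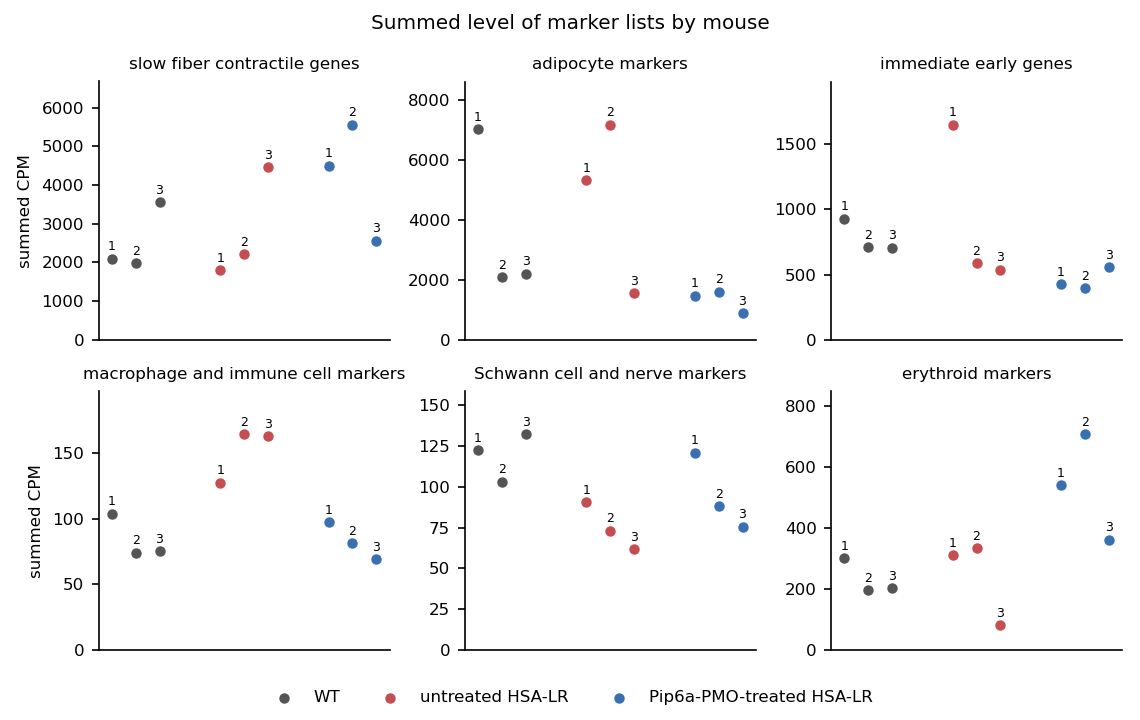
Summed CPM of 6 marker lists in each quadriceps library, on linear axes from 0, with the mouse number beside each point. Grey marks WT, red untreated HSA-LR and blue treated HSA-LR mice. Adipocyte markers are high in untreated mice 1 and 2, immediate early genes in untreated mouse 1, and macrophage markers are lower in all treated than in all untreated mice.

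Z-disc genes moved both ways. Of 35 genes for Z-disc, titin and scaffold proteins, 6 rose and 6 fell (median log2 FC 0.10). The titin cap gene Tcap rose from 1228, 1086 and 1288 to 1658, 1574 and 1751 CPM (log2 FC 0.47 ± 0.090, edgeR adjusted P = 0.0205). The PDZ-LIM gene Pdlim3 fell from 1072, 944 and 1224 to 589, 549 and 699 CPM (log2 FC -0.82 ± 0.13, edgeR adjusted P = 0.0099), and Klhl41, which stabilizes sarcomere proteins, had a log2 FC of -0.74. Tcap, Pdlim3 and Klhl41 were among the 4 firm calls of the list. Xirp1 and Fhl1, which are raised when muscle is damaged or loaded, had a log2 FC of -1.41 and -1.37 (edgeR adjusted P = 0.0301 and 0.0783), and neither was firm. Without untreated mouse 1, 2 Z-disc genes rose and 2 fell.

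Chaperones split in the same manner. Among 14 tested, 3 rose and 3 fell. Hsp90aa1, which folds myosin together with Unc45b, had 96.9, 81.5 and 80.1 CPM in untreated and 121, 135 and 178 CPM in treated mice (log2 FC 0.75 ± 0.16, edgeR adjusted P = 0.0279) and was the firm call of the list, and Unc45b and Hsph1 rose by 0.53 and 0.64. The small heat shock proteins Hspb7, Hspb1 and Hspb8 fell (log2 FC -1.45, -0.68 and -0.45). None of these falls was firm, and 0 of the list were lower without untreated mouse 1 or treated mouse 1.

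Of 9 embryonic and regeneration genes tested, 2 fell (22.2%, against 7.22% of all genes), the perinatal myosin Myh8 from 13.6, 14.1 and 15.8 to 9.87, 9.39 and 9.11 CPM (log2 FC -0.62 ± 0.11, edgeR adjusted P = 0.0154, a firm call) and the adhesion molecule Ncam1 by -0.58. The list as a whole did not fall, with a median log2 FC of 0.24, 6 members positive and 3 negative. Of 19 myogenic regulators and satellite cell genes 0 were called by edgeR, 2 had an unadjusted P under 0.05, and DESeq2 called 1 and limma voom 0.

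The dystrophin complex, which anchors the cytoskeleton to the matrix, changed in 1 of 20 genes (5.0%, against 13.8% of all genes). Sntb1 (ENSMUSG00000060429.11, chromosome 15, 55636388 to 55906949, minus strand), the adaptor beta-1-syntrophin, fell from 16.9, 16.1 and 13.2 to 2.17, 2.35 and 1.96 CPM, against 3.26, 1.74 and 1.73 CPM in WT mice (log2 FC -2.83 ± 0.25, edgeR adjusted P = 0.00114), and the call was firm. Dmd itself had 92.0, 104 and 122 and 104, 109 and 103 CPM (log2 FC -0.011, edgeR adjusted P = 0.97). Among 16 genes of T-tubules and membrane repair, the dynamin Dnm2, which shapes the tubules, rose by 0.29 and 3 fell, the annexins Anxa2 and Anxa1 and the caveola gene Cavin4 (log2 FC -0.86, -0.80 and -0.33). No call of this second list was firm, and without untreated mouse 1 none was made. Bin1, the organizer of the tubules, had a log2 FC of -0.30 (edgeR adjusted P = 0.101).

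Calcium-dependent kinases and their targets changed in both directions. Of 24 genes for Mef2 factors, class IIa HDACs, calcineurin and CaM kinases, 4 rose and 5 fell, and 1 rise and 3 falls were firm. Camk1d (ENSMUSG00000039145.16, chromosome 2, 5293457 to 5714515, minus strand) fell from 16.9, 24.4 and 24.8 to 6.09, 4.71 and 5.17 CPM (log2 FC -2.05 ± 0.28, edgeR adjusted P = 0.00619), and Camk2d fell from 166, 136 and 152 to 86.2, 81.2 and 81.7 CPM (log2 FC -0.86 ± 0.093, edgeR adjusted P = 0.00204). Camk2b, a kinase isoform of the same family, had a log2 FC of -0.47. Hdac4, which holds Mef2 targets silent and is active in denervated muscle, rose from 32.7, 38.6 and 42.2 to 87.8, 79.3 and 52.9 CPM (log2 FC 0.95 ± 0.18, edgeR adjusted P = 0.0205). WT mice had 32.9, 40.4 and 38.6 CPM of Hdac4, which overlaps the untreated and not the treated mice.

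At the neuromuscular junction 2 of 19 genes rose, Hdac4 among them, and 4 fell. The alpha-catenin Ctnna3 fell from 12.5, 12.7 and 11.0 to 6.42, 7.19 and 5.40 CPM (log2 FC -0.93 ± 0.13, edgeR adjusted P = 0.00682, a firm call). The acetylcholine receptor subunits split, Chrnb1 with a log2 FC of -0.60 and Chrnd with 0.80 (edgeR adjusted P = 0.0431 and 0.0944). Runx1, a factor induced by denervation, had a log2 FC of -0.73. Without untreated mouse 1, 1 gene rose and 1 fell.

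Of 27 genes for insulin, IGF and myostatin signaling, Igfbp5 and Smad3 rose and Smad7 fell, and all 3 were firm calls. They were 11.1% of the list, near the 13.8% of all genes. Smad3, which carries signals of TGF-beta and myostatin to the nucleus, had 48.3, 51.8 and 44.0 CPM in untreated and 115, 120.2 and 83.0 CPM in treated mice (log2 FC 1.14 ± 0.15, edgeR adjusted P = 0.00432). Smad7, which inhibits that path, had 6.995, 5.36 and 6.65 and 3.24, 4.10 and 3.56 CPM (log2 FC -0.80 ± 0.14, edgeR adjusted P = 0.0161). Secreted factors included Fndc5, the precursor of irisin, which went from 9.83, 7.42 and 10.002 to 34.3, 44.1 and 16.8 CPM (log2 FC 1.81 ± 0.31, edgeR adjusted P = 0.0149). The heparin-binding factor midkine (Mdk) rose by 1.58, and the Wnt inhibitor Sfrp4 had a log2 FC of -1.07, so 2 of 19 rose and 1 fell, all of them firm. That was 15.8% of the secreted factors, also near the 13.8% of all genes.

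In energy metabolism, called genes were mostly higher. Of 18 genes for creatine, nucleotides and amino acids 5 rose, of 30 for glycolysis and glycogen 5, of 29 for fatty acids 3 and of 22 for AMPK and PGC-1 4, with 0, 0, 0 and 1 lower. The shares called were 27.8%, 16.7%, 10.3% and 22.7%, against 13.8% of all genes. Ckmt2, the mitochondrial creatine kinase, had 634, 555 and 771 CPM in untreated and 1714, 2090 and 1098 CPM in treated mice (log2 FC 1.32 ± 0.25, edgeR adjusted P = 0.0196), and the creatine transporter Slc6a8 had a log2 FC of 0.42. Fabp3, the fatty acid carrier of oxidative fibers, had 132, 104 and 129 and 409, 538 and 231 CPM (log2 FC 1.69 ± 0.31, edgeR adjusted P = 0.018). For Ckmt2 and Fabp3, treated mouse 3 was the lowest treated mouse, as for the slow fiber genes. With the slow fiber covariate their log2 FC was 0.78 and 0.94. Both were firm, as were Slc6a8, Mlycd (log2 FC 0.50), which removes the malonyl-CoA brake on fat oxidation, and the AMPK subunit Prkag1 (0.45).

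Most other metabolic calls were not firm. Ppp1r3c, which targets a phosphatase to glycogen, had 156, 157 and 179.7 and 628, 464 and 221 CPM (log2 FC 1.41, edgeR adjusted P = 0.0429). The glycogen phosphorylase Pygm and lactate dehydrogenase B (Ldhb) rose by 0.45 and 1.47, and 0 glycolytic genes were called without untreated mouse 1 or 2 or treated mouse 1. The AMPK subunit Prkab2 had a log2 FC of 0.99, while the coactivators split, Ppargc1a at 0.68 and Ppargc1b at -0.96. In the TCA cycle Ogdh and Idh2 rose by 0.41 and 0.49. Pdk3, a kinase that shuts pyruvate dehydrogenase, had a log2 FC of -1.01 (edgeR adjusted P = 0.0205) and was the firm call among 24 genes. Of those 24, 12.5% were called, near the 13.8% of all genes. Of 75 nuclear subunits of oxidative phosphorylation 1 was called, Sdha at 0.24, which is 1.33% against the 13.8% of all genes, and the median was 0.065.

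Among 15 p53 targets and growth arrest genes, which respond to DNA damage and other stress, 4 fell and 1 rose. The median log2 FC was -0.51, but the list was split, with 8 members negative and 7 positive. Its summed level overlapped between untreated and treated mice, with means of 1225 and 1298 CPM. Eda2r, a death-domain receptor, went from 72.3, 65.0 and 76.1 to 19.3, 19.4 and 16.4 CPM (log2 FC -1.95 ± 0.21, edgeR adjusted P = 0.00224), still above the WT mice at 7.12, 10.2 and 5.17 CPM. Gadd45b, a stress-induced growth arrest gene, had 23.0, 13.1 and 18.8 CPM in untreated and 3.19, 4.05 and 5.11 CPM in treated mice (log2 FC -2.15 ± 0.27, edgeR adjusted P = 0.00416). Both falls were firm, and both stayed called with the 5′ to 3′ covariate. Its relative Gadd45g rose by 1.20 (edgeR adjusted P = 0.0402), and the list held 0 rises without untreated mouse 1 or treated mouse 1 or 3. In the cell cycle list, 2 of 28 fell, cyclin E1 (Ccne1, log2 FC -1.71, a firm call) and Dtl (-1.60), which guides the destruction of replication licensing factors. That was 7.14% of the list, near the 7.22% of all genes called lower, and the list median was 0.079.

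Immediate early genes, which respond within minutes to stimulation or tissue handling, had a median log2 FC of -1.09, with 6 of 22 lower. Fos had 239.6, 16.9 and 28.5 CPM in untreated and 12.7, 7.07 and 11.6 CPM in treated mice (log2 FC -3.18 ± 0.89, edgeR adjusted P = 0.0657), so untreated mouse 1 alone set most of its difference. Atf3, a stress-induced factor, had 107, 30.7 and 67.1 and 20.0, 12.1 and 15.9 CPM (log2 FC -2.09, edgeR adjusted P = 0.035). Summed over the list, untreated mice had 1649, 585 and 537 CPM and treated mice 429, 398 and 557 CPM. Without untreated mouse 1 or treated mouse 2, 0 were called lower, and without untreated mouse 3, 10.

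The stress response of the endoplasmic reticulum moved both ways, with 4 of 25 genes higher and 3 lower. Aldh1l2, a mitochondrial folate enzyme induced by Atf4, went from 1.96, 2.68 and 3.77 to 9.05, 6.69 and 8.23 CPM (log2 FC 1.51 ± 0.26, edgeR adjusted P = 0.0154) and was the firm call of the list. The amino acid transporter Slc7a5 and Herpud1, of the degradation path of the reticulum, rose by 0.84 and 0.47, and Ppp1r15a, which ends the stress response, had a log2 FC of -0.80. Of 17 antioxidant genes 4 rose, among them Gstm1 and Txnrd1 (0.43 and 0.40), and Gpx1 fell (-0.52). Of 30 autophagy and lysosome genes 4 rose and 2 fell, with 1 firm call. Of 22 atrophy genes 3 rose, Fbxo31, Cblb and Foxo4 (0.39, 0.54 and 0.36), none firmly. That was 13.6% of the atrophy genes, near the 13.8% of all genes. Without untreated mouse 1 or 2, 0 antioxidant or atrophy genes and 2 autophagy genes were called. Of 29 proteasome subunits 0 were called by edgeR, DESeq2 or limma voom, and 1 had an unadjusted P under 0.05.

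Polyamine genes fell in 3 of 9 and rose in 1. Sat1, which acetylates spermidine for export or breakdown, went from 49.5, 39.7 and 54.3 to 27.4, 22.5 and 24.4 CPM (log2 FC -0.95 ± 0.14, edgeR adjusted P = 0.00833). Azin1, which frees ornithine decarboxylase from its inhibitor, had a log2 FC of -0.74, and both were firm. Smox, a spermine oxidase, had 99.6, 103 and 99.5 and 237, 283 and 205 CPM (log2 FC 1.26, edgeR adjusted P = 0.0629), and the list held 0 rises without untreated mouse 1 or 2 or treated mouse 1 or 2.

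**Figure D4:**
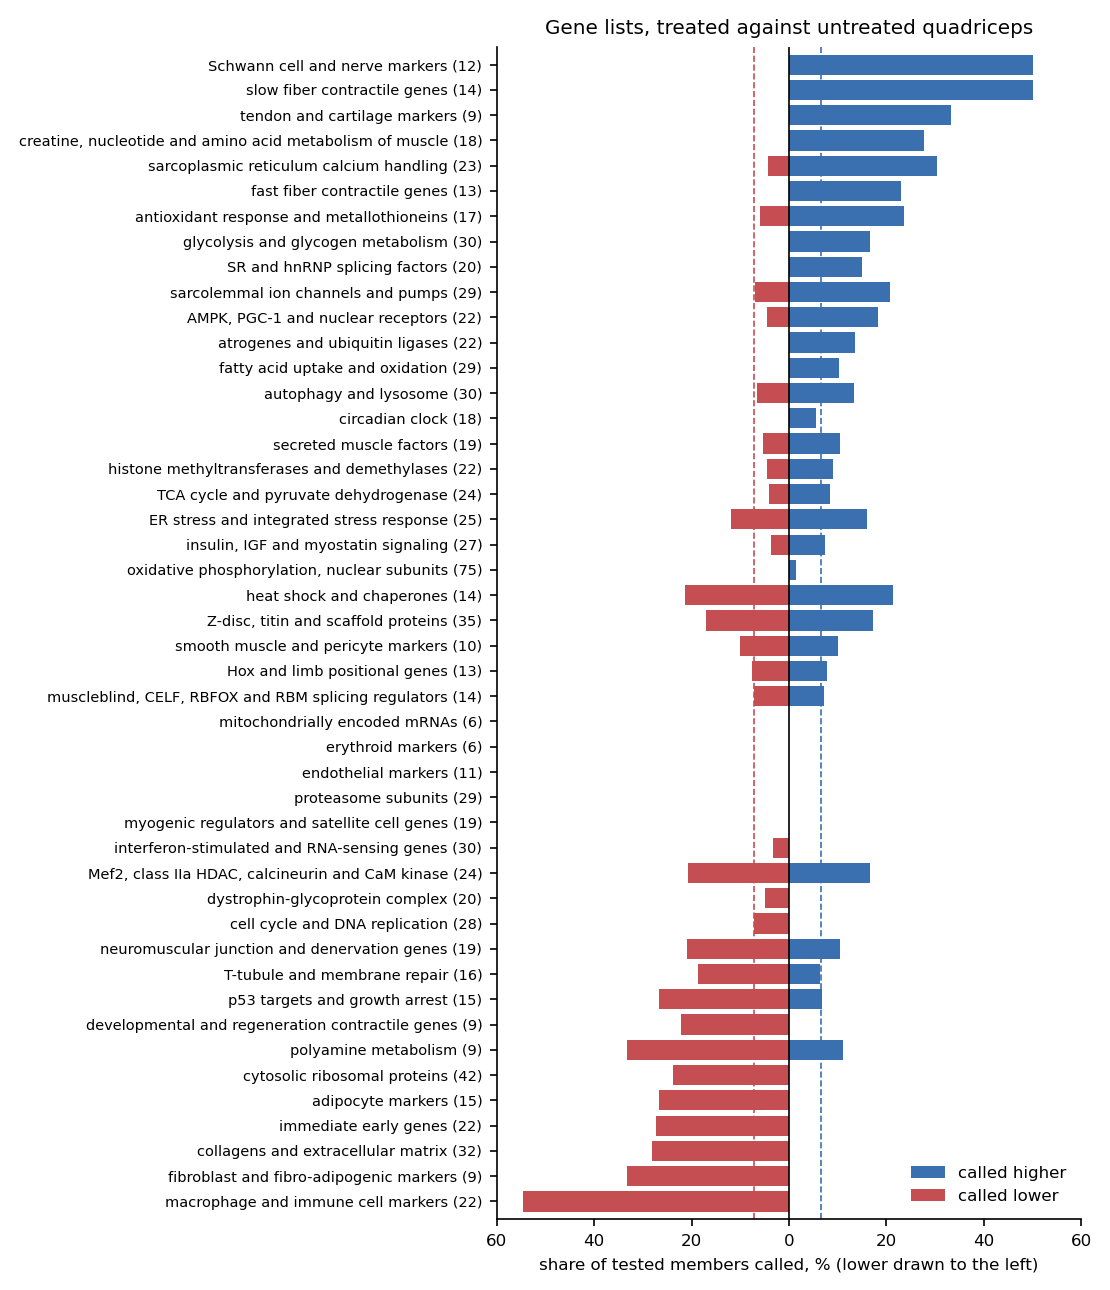
Share of tested members called higher (blue, to the right) and lower (red, to the left) in treated against untreated mice for the lists of function and cell type, with the number tested in brackets. Dashed lines mark the 6.54% of all genes called higher and the 7.22% called lower. Lists of 6 to 15 genes move in coarse steps.

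Markers of cells other than muscle fibers differed between the groups as well. Macrophage and immune markers fell in 12 of 22 genes and rose in 0, the largest share lower of any list, with a median log2 FC of -0.79. The mannose receptor Mrc1 had 15.7, 20.2 and 21.1 CPM in untreated and 9.90, 8.87 and 6.78 CPM in treated mice (log2 FC -1.16 ± 0.20, edgeR adjusted P = 0.015), and 9.61, 9.56 and 6.38 CPM in WT mice. The endotoxin co-receptor Cd14, the growth factor receptor Csf1r, the signaling adaptor Tyrobp and the lysosomal protein Cd68 had a log2 FC of -1.25, -0.98, -0.89 and -1.12. These 5 were firm calls. Summed over the list, untreated mice had 127, 164 and 163 CPM and treated mice 97.3, 81.2 and 68.8 CPM, with no overlap, and WT mice 104, 74.1 and 75.4 CPM. The count was 5 without untreated mouse 2 or treated mouse 2.

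Of 32 collagens and other matrix genes 9 fell and 0 rose (median log2 FC -0.32). The collagen-binding lumican (Lum) went from 24.9, 26.8 and 27.2 to 15.7, 12.9 and 13.9 CPM (log2 FC -0.90 ± 0.10, edgeR adjusted P = 0.00204, a firm call), and the protease Mmp2 and the collagen VI genes Col6a1 and Col6a2 had a log2 FC of -0.49, -0.61 and -0.67. Of 9 fibroblast markers 3 were called lower, Lum, Gsn and Dpt. The list had 6 members negative and 3 positive, with a median log2 FC of -0.33, and 0.0048 in the gastrocnemius. The sum of the fibroblast list was 1986, 2042 and 1667 CPM in untreated and 1393, 1177 and 1139 CPM in treated mice, again with no overlap. Without untreated mouse 1, 1 matrix gene was lower, and without untreated mouse 2, 2. With the adipocyte level of a library as a covariate 2 matrix genes were called lower.

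Adipocyte markers had a median log2 FC of -2.36, with 4 of 15 lower, and rested on untreated mice 1 and 2. Their sum was 5316, 7178 and 1568 CPM in untreated, 1472, 1609 and 892 CPM in treated and 7020, 2097 and 2203 CPM in WT mice. Ucp1, the uncoupling protein of brown fat, had 61.7, 189.9 and 0.0847 CPM in untreated and 0.624, 0.347 and 0.210 CPM in treated mice (log2 FC -7.74 ± 2.12, edgeR adjusted P = 0.0621). Car3, a carbonic anhydrase of both fat and slow muscle, had 2014, 2042 and 1127 and 699, 787 and 468 CPM (log2 FC -1.41 ± 0.27, edgeR adjusted P = 0.0208) and was the firm call of the list. Without untreated mouse 3, 14 markers were lower, and 1 was lower when any other HSA-LR mouse was left out. With the adipocyte level of a library as a covariate 1274 genes were called in all, of which 1093 were shared. Among the lists, 7 macrophage markers, 2 matrix genes and 1 immediate early gene were then called lower, and 2 genes of reticulum calcium handling, 1 slow fiber gene and 0 nerve markers higher. Some lists gained calls, with 8 fatty acid genes and 5 erythroid markers higher, against 3 and 0 without the covariate. The part of fat in the other differences was not tested otherwise.

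Schwann cell and nerve markers rose in 6 of 12 (median log2 FC 0.52), among them the myelin gene Mag (0.98), and tendon and cartilage markers in 3 of 9. None of these calls was firm, and the summed levels overlapped for nerve, at 90.7, 73.2 and 61.8 CPM in untreated and 121, 88.3 and 75.5 CPM in treated mice. Without untreated mouse 2 or treated mouse 1, 0 nerve markers were called. Smooth muscle markers changed in 1 gene each way of 10, Myh11 (0.44) and Cspg4 (-1.08). Of 11 endothelial and 6 erythroid markers 0 were called by edgeR or limma voom, while 5 and 2 had an unadjusted P under 0.05 and DESeq2 called 3 and 1. The erythroid sum was 311, 334 and 80.4 CPM in untreated and 539, 706 and 361 CPM in treated mice, which did not overlap.

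The splicing regulator, SR and hnRNP, and histone methylation lists had 14.3%, 15% and 13.6% of their genes called, near the 13.8% of all genes, and cytosolic ribosomal proteins had 23.8%. Among 14 MBNL, CELF, RBFOX and RBM splicing regulators, Celf2 rose by 0.60 and Nova1 had a log2 FC of -0.79, and neither call was firm. Mbnl1 had 289.7, 299.6 and 348 CPM in untreated and 326, 354 and 377 CPM in treated mice (log2 FC 0.17 ± 0.13, edgeR adjusted P = 0.422), so its splicing changed beyond the spread of the mice and its level did not pass the test. Of 20 SR and hnRNP factors 3 rose, Srsf7 and Srsf6 as firm calls (0.34 and 0.34) and Tra2a (0.29). Of 42 cytosolic ribosomal protein genes 10 fell, with a median log2 FC of -0.18, and Rpl7 led them with 384, 355 and 407 CPM in untreated and 305, 283 and 319 CPM in treated mice (log2 FC -0.34). None of those was firm, and 0 were called without untreated mouse 1 or treated mouse 1 or 2. Of 6 mitochondrially encoded mRNAs 0 were called by edgeR, DESeq2 or limma voom and 0 had an unadjusted P under 0.05. Of 22 histone methylation genes Ash1l and Kdm2a rose (0.55 and 0.40) and Dot1l fell (-0.28), none firmly. Of 18 clock genes Per2 rose (0.56), of 13 limb positional genes 1 rose and 1 fell, the latter Tbx5 (-1.21), and of 30 interferon and RNA-sensing genes Ifih1 fell (-0.62), again none firmly. The clock, limb and interferon lists had 5.56%, 15.4% and 3.33% of their genes called.

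Of 12 genes that are known in DM1 or served for normalization, Clcn1 and Ldb3 were called, and Ldb3, a Z-disc gene, rose from 1545, 1432 and 1850 to 2262, 2370 and 2244 CPM (log2 FC 0.51, edgeR adjusted P = 0.069). The Ldb3 call was not firm: it was lost without untreated mouse 1 or 2 or any treated mouse, and with the largest bin of the gene in place of the bin sum its log2 FC was 0.0056. The log2 FC was -0.31 for Dmpk, 0.12 for Acta1, 0.16 for Insr, 0.060 for Sos1 and -0.13 for Rplp0, with edgeR adj. P from 0.214 to 0.83. None of these 5 passed the test. For Insr and Mbnl1 the sign turned with the largest bin. The transgene is a skeletal actin gene, and its reads may add to those of Acta1, which limits what its value means. Dmpk had 869.7, 803 and 912 CPM in untreated and 713, 667 and 699.5 CPM in treated mice.

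Uninterrupted runs of at least 7 CTG on the sense strand lay in annotated transcripts of 77 genes. Of those, 65 matched a gene ID in the count data and 50 were tested. Of the 50 tested, 6 rose and 4 fell, 20.0% against the 13.8% of all genes, with a median log2 FC of 0.095. Those with flanking sequence are shown because CTG runs are what the PMO pairs with, with the run in capitals and up to 30 bases in all. The runs lie in the 5′ UTR of Mllt3 and Cab39, the 3′ UTR of Angel1 and Pla2g15, a noncoding transcript of Fbxo31 and the coding sequence of Ngfr. On GRCm38 the 8 repeats of Mllt3 are at chr4:88033301-88033324, those of Angel1 at chr12:86700920-86700943 and those of Fbxo31 at chr8:121564587-121564610, all on the minus strand. The 7 repeats of Cab39 are at chr1:85795367-85795387 and of Pla2g15 at chr8:106163545-106163565 on the plus strand, and those of Ngfr at chr11:95587493-95587513 on the minus strand.
Mllt3: gagCTGCTGCTGCTGCTGCTGCTGCTGctt
Cab39: ctagCTGCTGCTGCTGCTGCTGCTGgtgg
Angel1: atgCTGCTGCTGCTGCTGCTGCTGCTGcgt
Pla2g15: gagaCTGCTGCTGCTGCTGCTGCTGaatt
Fbxo31: tggCTGCTGCTGCTGCTGCTGCTGCTGcat
Ngfr: gcgcCTGCTGCTGCTGCTGCTGCTGcttc
Longer runs of 18, 25 and 11 CTG lay in Aasdh, Mapkap1 and Pdlim2. Apart from Txlnb, Aasdh was the only firm call, at 7.12, 7.32 and 7.69 CPM in untreated and 10.04, 9.53 and 10.9 CPM in treated mice (log2 FC 0.46 ± 0.089, edgeR adjusted P = 0.0209). Mapkap1, with the longest run among the tested genes, had a log2 FC of 0.28. Angel1, Cab39 and Fbxo31 rose by 0.37, 0.56 and 0.39, while Mllt3, Ngfr, Pla2g15 and Pdlim2 had -0.54, -1.32, -0.59 and -0.51. Neither the length of a run nor its place in the transcript gave 1 direction, and none of the other 9 changed as much as Txlnb.

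The gastrocnemius served as a second muscle, where 1566 of 15625 genes (10.02%) were called. Of 2114 genes called in the quadriceps and tested there, 1930 (91.3%) had the same direction, 820 (38.8%) were also called in that direction, and 1 was called in the opposite one. Per the study both muscles were taken from the same treated mice, so the muscles are not independent samples. The labels give both muscles the same mouse numbers, and the deviations of same-numbered libraries from their group means correlated at 0.0909 to 0.548 in the 9 pairs. Txlnb had 344, 339 and 334 CPM in untreated and 1837, 2086 and 1608 CPM in treated gastrocnemius (log2 FC 2.44, edgeR adjusted P = 2.86e-05). The log2 FC there was 1.56 for Cdnf, -1.70 for Peg10, -2.41 for Ogdhl, -3.69 for Cited1, -2.37 for Sntb1 and 3.26 for Tmem236, each with an edgeR adj. P under 0.1. Among quadriceps calls with other values there were Fxyd6 at 0.36, BC048679 at 1.18, Myh2 at -0.009 and Hdac4 at 0.17, none of them called there. The macrophage list had a median of 0.030 in the gastrocnemius and 4 of its quadriceps falls were called there, and the slow fiber and adipocyte lists had 1.07 and 0.77. The gene called in opposite directions was the fat droplet gene Cidea, named here after its values were seen, with 35.9, 91.3 and 0.500 CPM in untreated and 1.56, 1.63 and 0.411 CPM in treated quadriceps and 0.494, 0.477 and 0.543 and 1.59, 1.05 and 4.94 CPM in gastrocnemius.

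A direct test of whether the change differed between the muscles called 0 of 16167 genes (edgeR interaction of muscle and treatment, smallest adjusted P = 0.600, with 1271 genes at an unadjusted P under 0.05). Among the 3 smallest P values were those of Dusp14, a phosphatase of MAP kinases, with a log2 FC of -0.20 in the quadriceps and 0.71 in the gastrocnemius, and Aox2, an aldehyde oxidase, with 2.62 and -0.22. With the mouse number as a block, 0 genes were called, the smallest adj. P was 0.112 and 2257 genes had an unadjusted P under 0.05. Without the quadriceps of untreated mouse 3, 7 genes were called, among them Ucp1, Cidea, Elovl6 and Orm1, named after their values were seen.

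**Figure D5:**
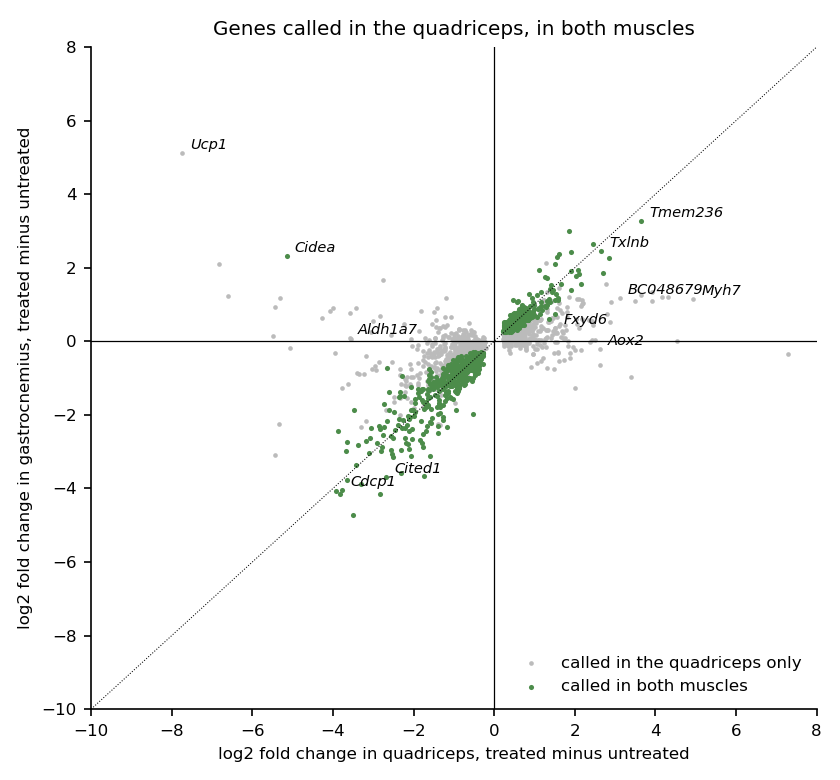
Log2 fold change in treated against untreated mice in the quadriceps (x axis) and gastrocnemius (y axis) for the 2114 genes called in the quadriceps and tested in both. Green genes were also called in the gastrocnemius, and the dotted line marks equal change. Most points lie at the lower left and upper right, where both muscles have the same sign, and adipocyte genes such as Ucp1 and Cidea lie at the upper left.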

How the data were processed

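RNA-seq libraries of polyA-selected quadriceps RNA, made with a stranded kit, were analysed for 3 treated HSA-LR, 3 untreated HSA-LR and 3 WT mice, with the 9 gastrocnemius libraries as a second muscle. The files deposited by the authors hold counts, unnormalized, of the read pairs on each exon bin in the DEXSeq format. The submitters' processing notes name CASAVA, HISAT, featureCounts 1.5.0 and GRCm38, with no role or order. Bins were summed per gene ID, so a pair that overlaps several bins counted in each, and lines that name no gene (2.8% to 4.1% of counts in the quadriceps) were left out. IDs were matched to GENCODE M21, which gave a symbol for 46520 of 46725 genes.

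Genes were kept by filterByExpr (minimum count 10, minimum total 15), scaled by TMM and tested with edgeR 4.0.16 (R 4.3.3) in 1 quasi-likelihood fit of the 9 quadriceps libraries, with the Benjamini-Hochberg adjustment over all genes and calls at an adj. P under 0.1. Alternatives used DESeq2 1.42.0, limma 3.58.1 voom, other scalings, filters and covariates, and each library left out. The tests were tried on simulated counts, where 9.38% of edgeR, 8.28% of limma voom and 30.6% of DESeq2 calls were false. There edgeR recovered 62.2% of the changes with an absolute log2 FC of 1 and 85.7% of those with 2. The simulation changed 200 genes and drew each gene independently, without differences between mice that many genes share. Its rates therefore do not give the error in the real data. The labels do not say that libraries came from separate litters or cages, and P-values measure the spread between these libraries. Named genes were the 12 higher and 12 lower with the smallest P among symbols changed at least 2-fold without overlap, the 5 largest changes each way at 1 CPM or more, up to 4 called members per list, the 3 genes with the smallest P between muscles, and called genes with at least 7 CTG. The members, the 49 lists and the rules were chosen with earlier results of these data known. A few further list members are named beside them, and some genes that these rules name are not reported here.

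Replicate numbers are shared by the groups in the labels, and the main fit did not pair samples by them. Deviations of same-numbered treated and untreated libraries correlated at 0.0039, 0.0859 and 0.125. These values cannot decide whether the numbers pair samples, since same-numbered libraries of the 2 muscles correlated at as little as 0.0909. Total counts of 98916844 to 130717686 per quadriceps library leave counting error below the spread between mice for all but the lowest genes.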

Additional observations from a re-analysis of the deposited data

How the results depend on the processing

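The number of genes called (2143) was 227 with the 5′ to 3′ covariate, 1078 with the slow fiber covariate, 1274 with the adipocyte covariate, which was chosen after seeing the data, and 1024 at an adj. P under 0.05. It ranged from 691 to 2784 with single libraries left out. The number changed at least 2-fold (648) was 132, 401 and 373 with the 5′ to 3′ covariate, the slow fiber covariate and the stricter adj. P, and 330 to 1009 with libraries left out. DESeq2 called 3155 and limma voom 2028. Upper quartile scaling left the count at 2118 but moved the share of calls that were higher from 47.6% to 40.5%. The replicate block, fitted although no pairing of treated and untreated mice by number is known, called 1833 genes and 559 at least 2-fold. Between muscles 0 genes differed with or without the mouse number as a block, and 7 differed when the quadriceps of untreated mouse 3 was left out. The share also called in the gastrocnemius (38.8%) was 41.8% for genes changed at least 2-fold. Exon shares kept their direction with each library left out, an outcome fixed in advance because the groups did not overlap.

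Of the named genes, 52 were followed under the alternatives, and other genes named with the lists were not. Among the 52, genes that were not called and changed sign were Dmd, Insr, Mbnl1 and Sos1. Dmd was at 0.012 with the slow fiber covariate and -0.096 to 0.10 with libraries left out. Insr was at -0.064 with the largest bin and -0.13 with the 5′ to 3′ covariate, and Mbnl1 at -0.071 with the largest bin. Sos1 was at -0.16 with the 5′ to 3′ covariate, -0.0078 with the slow fiber covariate, -0.013 with the adipocyte covariate and -0.051 to 0.11 with libraries left out. The other tested values of these 52 genes kept their direction, 955 on the same side of the threshold, 110 no longer called and 16 newly called. The cause was not tested for any of these changes.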
